A study of Mus musculus with 12 samples.

Results

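TET2 binding sites in gene deserts were examined in cultured mouse blood cells of 2 kinds. A site was counted here when its midpoint lay outside every protein-coding gene and over 100 kb from the start and the end of each one. After overlapping rows of a deposited list were merged and chromosomes 1 to 19 were kept, 531 of the 6778 sites in the acute myeloid leukemia (AML) list met this rule, or 7.83% of that list (exact Clopper-Pearson 95% interval 7.21 to 8.50%). In the myeloid list 1074 of 18533 sites met it, or 5.8% of that list (5.46 to 6.14%). Joined across the lists, the desert sites formed 1281 of 20438 regions. These counts follow from the rule and are not tested.

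TET2 is an enzyme that oxidizes 5-methylcytosine in DNA, the first step towards the loss of that mark, and its gene is often mutated in human myeloid leukemia. Enhancers are stretches of DNA that bind transcription factors and raise the activity of genes that may lie far away, and much 5-methylcytosine oxidation by TET2 is known from enhancers. Gene deserts beside genes of development and blood formation are known to hold such distant enhancers, and many long non-coding RNA (lncRNA) genes start there.

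TET2 was located by chromatin immunoprecipitation and sequencing (ChIP-seq), in which an antibody pulls down the DNA that a protein touches. Here a rabbit polyclonal antibody raised against the N terminus of TET2 was used. Myeloid cells were blood cells immortalized in culture by AML1-ETO, a fusion of the blood transcription factor RUNX1 (AML1) with the corepressor ETO, carried by the retroviral transgene MigR1-AML1-ETO. Their genotype was Tet2fl/fl; AML1-ETO in wild-type samples and Tet2-/-; AML1-ETO in knockout samples. AML cells carried no transgene; the labels give them as Npm1+/cA; Fl3+/ITD, with Tet2-/- added in knockout samples. Npm1 and Flt3 are commonly mutated in human AML. Each of these 4 groups had 2 TET2 libraries, and each cell type had 1 input and 1 IgG library from wild-type cells, 12 libraries in all. All groups, controls included, grew with 50 ng/ml SCF, 10 ng/ml IL-3 and 10 ng/ml IL-6, cytokines that keep immature blood cells dividing. The 2 deposited lists hold the position of each site and no value per library, so no level, replicate error or sequencing depth stands behind a site, and wild-type and knockout cells could not be compared. Intervals given for shares and densities reflect the counting of sites alone, and the difference between the lists has no replicate check. The labels do not say that replicates came from separate cultures, and with no expression data the cell types could not be checked against their markers.

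Some desert sites lay on the annotated starts of lncRNA genes, and the sequences of those starts are shown because they are the TET2-bound desert DNA whose letters were at hand. RefSeq (GRCm38.p6, the coordinates of mm10) gives a window of 300 bases, from 250 before to 50 after each start. A desert site overlapped 32 such windows, which belonged to 30 genes, all of them lncRNA genes. AML sites met 15 of the windows, and myeloid sites met 29. In 7 windows of 6 genes, the whole window lay inside a site of each list. The windows of these 6 genes read as follows on the strand of the gene (1 of the overlapping pair for Gm41331), with capitals for matches on either strand to the letters searched. These were TGTGGT for RUNX, GGAAGT for ETS, TTGCNNAA for CEBP, TGANTCA for AP-1, AGATAA for GATA, TTCNNNGAA for STAT and CAGCTG for the E-box, beside the IRF and CTCF motifs.
Gm31583 promoter window, chr16:24090016-24090315, minus strand: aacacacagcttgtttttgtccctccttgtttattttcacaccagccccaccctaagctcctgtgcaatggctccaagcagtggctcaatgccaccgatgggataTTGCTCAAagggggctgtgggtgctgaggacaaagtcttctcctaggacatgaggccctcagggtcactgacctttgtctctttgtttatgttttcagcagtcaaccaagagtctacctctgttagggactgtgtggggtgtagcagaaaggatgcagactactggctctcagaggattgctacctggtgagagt
LOC115487176 promoter window, chr9:61013180-61013479, plus strand: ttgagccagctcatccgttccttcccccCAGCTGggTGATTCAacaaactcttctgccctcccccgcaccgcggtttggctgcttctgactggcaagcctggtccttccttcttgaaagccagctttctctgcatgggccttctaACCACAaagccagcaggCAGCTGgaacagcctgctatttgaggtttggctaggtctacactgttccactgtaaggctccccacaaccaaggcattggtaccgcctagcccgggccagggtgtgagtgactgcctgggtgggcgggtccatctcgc
Gm46116 promoter window, chr9:61056683-61056982, plus strand: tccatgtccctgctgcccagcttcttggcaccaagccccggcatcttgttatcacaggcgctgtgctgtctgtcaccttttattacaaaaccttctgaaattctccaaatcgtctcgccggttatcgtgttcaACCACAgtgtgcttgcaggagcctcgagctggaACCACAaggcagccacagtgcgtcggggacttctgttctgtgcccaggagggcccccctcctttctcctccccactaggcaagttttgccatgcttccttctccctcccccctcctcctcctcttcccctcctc
9130015A21Rik promoter window, chr12:35686255-35686554, minus strand: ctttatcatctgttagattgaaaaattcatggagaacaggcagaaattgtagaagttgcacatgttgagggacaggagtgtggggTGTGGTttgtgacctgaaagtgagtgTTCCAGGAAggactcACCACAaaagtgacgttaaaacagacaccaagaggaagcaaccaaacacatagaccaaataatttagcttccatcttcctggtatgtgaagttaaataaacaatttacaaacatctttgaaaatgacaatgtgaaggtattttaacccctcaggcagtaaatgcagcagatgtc
Gm41331 promoter window, chr15:60141576-60141875, plus strand: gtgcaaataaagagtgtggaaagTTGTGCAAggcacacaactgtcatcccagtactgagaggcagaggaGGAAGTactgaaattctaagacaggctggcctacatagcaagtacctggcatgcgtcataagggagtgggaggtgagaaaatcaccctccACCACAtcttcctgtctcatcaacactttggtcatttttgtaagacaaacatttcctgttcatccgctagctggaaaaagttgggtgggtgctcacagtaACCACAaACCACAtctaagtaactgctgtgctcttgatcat
Gm34589 promoter window, chr14:102828159-102828458, minus strand: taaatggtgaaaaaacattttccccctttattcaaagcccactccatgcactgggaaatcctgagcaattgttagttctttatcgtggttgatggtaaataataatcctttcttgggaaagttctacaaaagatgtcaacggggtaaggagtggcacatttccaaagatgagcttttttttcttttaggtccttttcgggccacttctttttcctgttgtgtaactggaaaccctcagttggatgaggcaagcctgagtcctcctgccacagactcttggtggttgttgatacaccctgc

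The RUNX letters, which read ACCACA on the opposite strand, were found in 4 of the 6 windows shown, and Gm41331 held 3 copies of them. RUNX factors bind this motif and direct blood formation. LOC115487176 also held an AP-1 and 2 E-box matches, while Gm34589 held no match to any of the 9 motifs. No printed match overlapped another. Across the 32 windows, 14 (43.8%) held the RUNX letters. The same letters were in 16.8% of all 32851 RefSeq windows, in 20.1% of 695 windows of genes other than coding genes that met a TET2 site outside the deserts, and in 20.1% of 10584 such windows without a site. AP-1 letters were in 18.8% of the 32 windows and in 7.81% of all windows, and GATA letters in 21.9% and 11.2%. The shares were 18.8% and 10.8% for CEBP, 12.5% and 8.30% for STAT, and 21.9% and 16.3% for the E-box. The ETS letters, which are bound by factors such as PU.1, were in 18.8% and 23.8%. No window at a desert site held the IRF or the CTCF letters, which were in 3.44% and 0.326% of all windows. Windows at desert sites had a median GC content of 48.2% and a median of 3 CpG pairs, beside 60.0% and 19 in windows of other than coding genes at sites outside the deserts and 48.0% and 4 in those without a site. Some of the 32 windows overlap and share bases, these shares were not tested, and a match is a description of letters rather than of binding by a factor.

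A second sequence near a desert site is a pair of microRNAs. One shared site, chr6:31065353-31066014 in the AML list and chr6:31065209-31066078 in the myeloid list, lay 2.94 kb from Mir29a and 2.59 kb from Mir29b-1 by its AML midpoint. These genes encode the miR-29 microRNAs, which are known to target the mRNAs of DNA methyltransferases and TET enzymes. The mature forms from their 3p arms share the seed, bases 2 to 8, shown in capitals.
mmu-miR-29a-3p: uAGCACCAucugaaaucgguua
mmu-miR-29b-3p: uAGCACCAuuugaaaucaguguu

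Both microRNAs lie between the coding genes Klf14 and Mkln1, where the AML list had 3 desert sites and the myeloid list 8, and all 3 AML sites were shared. Lncpint, a lncRNA gene in the same interval, contained 2 AML and 3 myeloid sites. One myeloid site, chr6:31220023-31220717, covered the promoter window of the lncRNA 2210408F21Rik and had no partner in the AML list. Mir6354, Mir7094-2, Mir6388, Mir6363 and Mir3970 had a desert site within 10 kb in the myeloid list alone. Of these, Mir7094-2 was nearest, 0.314 kb from the midpoint of its site, and the site overlapped the microRNA gene. Mir7094-2 lies in the immunoglobulin heavy chain locus described below.

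Desert sites were thinly spread and became sparser with distance from genes. The desert sequence measured 657 Mb, 27.3% of the 2403 Mb counted, and held 0.808 AML sites per Mb (Poisson 95% interval 0.741 to 0.880) and 1.63 myeloid sites per Mb (1.54 to 1.73). All other sequence held 3.58 and 10.0 sites per Mb. Between 100 and 200 kb from the nearest coding gene end the density was 1.49 per Mb in the AML list and 2.91 in the myeloid list. From 200 to 500 kb it was 0.638 and 1.31, and beyond 500 kb it was 0.352 and 0.784. Both lists thus thinned out in the same order of distance, and the intervals of neighbouring distance classes did not overlap within either list. The rule sets the distance of the members, so these densities are a description.

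**Figure D1:**
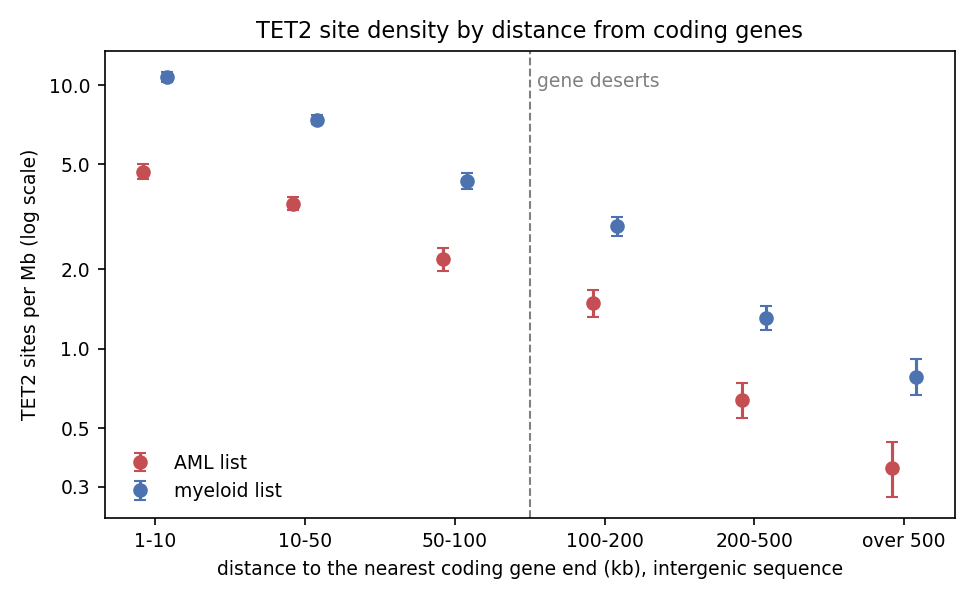
TET2 sites per Mb of intergenic sequence (vertical, log scale) by distance in kb to the nearest coding gene end (horizontal) for the AML and myeloid lists; bars are Poisson 95% intervals over sites. Density decreases across all 6 distance classes in both lists, from 4.70 and 10.7 per Mb at 1 to 10 kb to 0.352 and 0.784 per Mb beyond 500 kb.

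The median desert site lay 182 kb from a coding gene end in the AML list (quartiles 136 and 319 kb). The myeloid median was 186 kb (quartiles 137 and 335 kb). The most remote AML site, chr5:59996386-59997231 between Pcdh7 and G6pd2, lay 1812 kb from the nearest gene end and was shared. The most remote myeloid site, chr1:102765438-102766141 between Cntnap5b and Cdh20, lay 2003 kb away and was in the myeloid list alone. All 5 of the most remote AML sites were shared. They also included a site between Nudt12 and Efna5 at 1666 kb and 2 neighbouring sites between Nmbr and Cited2 at 1387 and 1388 kb. Among all 71 AML desert sites beyond 500 kb, however, 40 (56.3%) were shared, beside 71.8% of the whole AML list. Just inside the limit, the 3 nearest AML members lay at 100.1, 100.3 and 100.7 kb, and the 3 AML sites just outside it at 99.5, 99.5 and 99.7 kb. The matching myeloid distances were 100.0, 100.0 and 100.4 kb inside, and 99.5, 99.9 and 100.0 kb outside, the last of them 99.95 kb from Thbs1.

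Desert sites had about the width of other sites. Their median width was 719 bp in the AML list, against 721 bp at the other AML sites, and 694.5 bp in the myeloid list, against 711 bp. Within the myeloid list, shared desert sites had a median width of 745 bp and unshared ones 679 bp. In the AML list the same medians were 722 and 713.5 bp. The midpoints of the shared pairs lay a median of 24 bp apart (quartiles 12 and 47 bp), beside 25.5 bp for shared sites elsewhere. The widest member of the AML list, 1582 bp at chr13:59241739-59243321 between Ntrk2 and Agtpbp1, and that of the myeloid list, 1827 bp at chr10:17484806-17486633 between Nmbr and Cited2, were both shared. Both widths come from merging, of 2 overlapping rows in the AML list and 3 in the myeloid list.

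The lists were next compared for the desert sites they have in common, a property that the distance rule does not use. Of the 531 desert sites in the AML list, 323 overlapped a site of the myeloid list by 1 bp or more, or 60.8% (95% interval 56.5 to 65.0%), against 71.8% in the list as a whole. Among the other AML sites 72.7% (71.6 to 73.8%) were shared. The odds ratio was 0.583 (95% interval 0.484 to 0.704, adjusted p = 3.94e-08, two-sided Fisher's exact test with Benjamini-Hochberg adjustment over 5 tests). Against the AML sites that lay between genes but within 100 kb of one, of which 70.9% were shared, the odds ratio was 0.639 (0.524 to 0.780, adjusted p = 1.44e-05 by the same Fisher's exact test). Neither the class from 100 to 200 kb (62.8%), nor that from 200 to 500 kb (59.1%), nor that beyond 500 kb (56.3%) reached the share of the nearer intergenic sites, although the 3 intervals overlapped one another. AML desert sites were therefore found less often in the other list than AML sites elsewhere. With all annotated genes, lncRNA genes included, in place of coding genes, 64 AML desert sites were left, the first difference was lost (odds ratio 0.931) and the second turned direction (1.08), each with adjusted p = 0.891 by Fisher's exact test. With 1 count per interval the difference from nearer intergenic sites no longer passed (odds ratio 0.756, adjusted p = 0.0649, Fisher's exact test). An interval counted there as shared if any of its sites was, so this share also depends on the number of sites per interval.

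Seen from the myeloid list, 323 of the 1074 desert sites had an AML partner, or 30.1% (27.3 to 32.9%), against 26.3% in the list as a whole. The share at the other myeloid sites was 26.0% (odds ratio 1.22, 1.07 to 1.40, adjusted p = 0.00474, Fisher's exact test). These other sites included 4173 sites within 1 kb of a coding gene end, of which 11.8% were shared. Set against myeloid sites between genes and within 100 kb of one, 33.0% of which were shared, the desert share had an odds ratio of 0.874 (0.756 to 1.01) and did not pass the test (adjusted p = 0.0642, Fisher's exact test). This call depended on the settings: by the same exact test the difference passed over 200 kb (odds ratio 0.772, adjusted p = 0.0158), with rows not merged (0.854, adjusted p = 0.0276) and with midpoints within 1 kb counted as shared (0.864, adjusted p = 0.0436). With 1 count per interval, shared if any of its sites was, the odds ratio turned to 1.08 (adjusted p = 0.459, exact test). The difference from all other myeloid sites was lost beyond 200 kb by the same exact test, where the odds ratio was 1.07 (adjusted p = 0.535). It was lost as well when all annotated genes were used (1.05, adjusted p = 0.891, exact test).

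Sites found in 1 list alone are described by how many of them were desert sites. This comparison was among the 5 Fisher's exact tests of the adjustment. Its p is not given, since the location follows from the rule and each cell type has 1 list. Of the 1913 AML sites without a myeloid partner, 208 lay in deserts, or 10.9% (9.51 to 12.4%). Of the 13668 myeloid sites without an AML partner, 751 did, or 5.49% (5.12 to 5.89%). The odds ratio of these shares was 2.10 (1.78 to 2.47), and it was 1.13 when all annotated genes were used. Of the same sites, 5.33% in the AML list and 26.9% in the myeloid list lay within 1 kb of a coding gene end. Among those between genes alone, 21.7% of the 958 AML sites (interval 19.1 to 24.5%) lay in deserts, beside 16.9% of the 4451 myeloid ones (15.8 to 18.0%), an odds ratio of 1.37 (1.14 to 1.63). Neighbouring sites are not independent of each other, so the p-values of the sharing tests are too small and the intervals too narrow, and the list lengths differ, which sets the level of both shares.

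**Figure D2:**
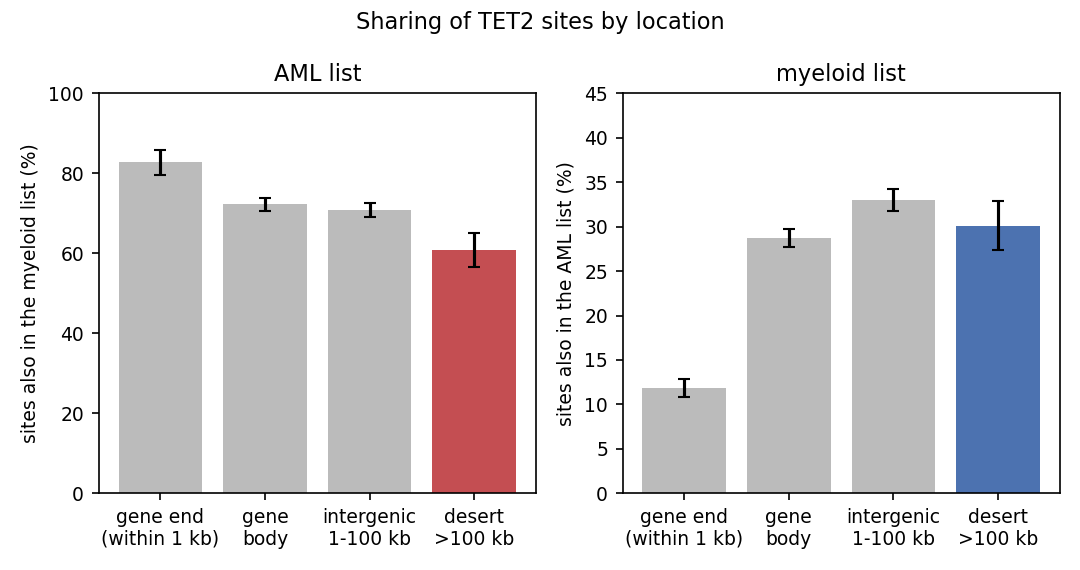
Share of sites (vertical, %) of the AML list (left) and the myeloid list (right) that overlap a site of the other list, for sites within 1 kb of a coding gene end, in gene bodies, between genes at 1 to 100 kb and in deserts; bars start at 0 and error bars are exact 95% intervals over sites. In the AML list deserts have the lowest share (60.8%), and in the myeloid list the lowest share is at gene ends (11.8%), with 30.1% in deserts.

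Desert sites lay in a minority of the stretches open to them, and the number of stretches expected from their lengths was not computed. There were 1395 intervals between neighbouring coding genes with sequence over 100 kb from both, and 464 of them (33.3%) held a desert site of either list. AML sites were in 270 intervals (19.4%), myeloid sites in 409 (29.3%), and sites of both lists in 215 (15.4%). A shared site was present in 188 intervals (13.5%), 2 or more in 66 and 3 or more in 33. A single region was found in 195 intervals, while 65 intervals with 5 or more regions together held 564 of the 1281. Occupied intervals were also longer, with a median of 642 kb against 350 kb for empty ones. Desert sites lay farther apart than the nearer intergenic sites. The next site of the same list was a median of 68.1 kb away in the AML list and 26.7 kb in the myeloid list, beside 31.2 and 11.1 kb. Of the desert sites, 20.0% in the AML list and 31.2% in the myeloid list had another site of their list within 10 kb, beside 27.9% and 47.6%. Joined at that spacing, the 1281 regions made 1047 groups, of which 870 were single regions and 42 had 3 or more. At a spacing of 5 kb there were 14 groups of 3 or more, and at 20 kb there were 77.

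**Figure D3:**
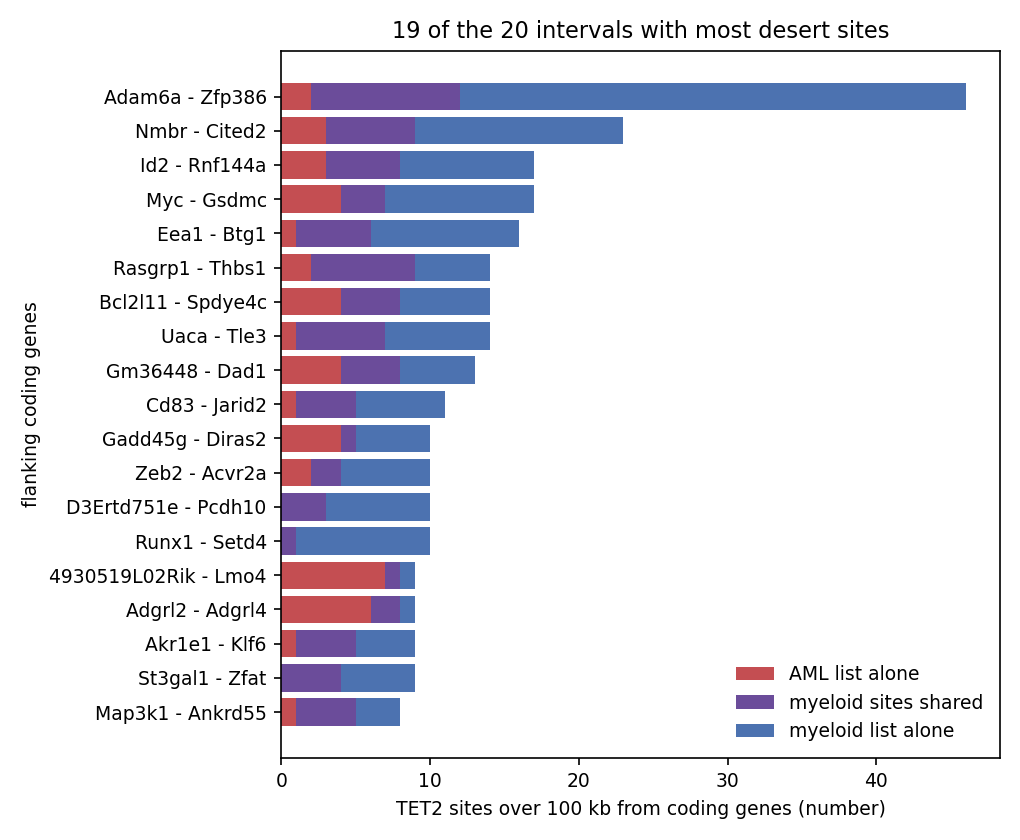
Number of TET2 desert sites (horizontal) in 19 of the 20 intervals with most of them, named by the flanking coding genes (vertical); colours mark sites in the AML list alone, myeloid sites shared with the AML list and sites in the myeloid list alone. The interval from Adam6a to Zfp386 holds 46 regions, and those from 4930519L02Rik to Lmo4 and from Adgrl2 to Adgrl4 are the only ones of the 19 with more AML than myeloid sites.

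The interval with most desert sites was not a desert of genes in every sense. Between Adam6a and Zfp386 on chromosome 12 lay 12 AML and 44 myeloid sites, 10 of them shared, and all were inside Igh, the immunoglobulin heavy chain locus, whose variable segments the annotation does not count as protein-coding genes. Similarly, the 8 AML and 9 myeloid sites between Gm36448 and Dad1, 4 of them shared, were inside Tcra, the T cell receptor alpha locus. Immunoglobulin and T cell receptor segments are joined in B and T cells to make antigen receptors. In all, 23 AML desert sites (4.33%) and 55 myeloid ones (5.12%) lay within 100 kb of such a segment, which goes against their name as gene-desert sites. Without them 508 and 1019 sites remained, and the odds ratios of sharing against other sites were 0.584 for AML sites and 1.24 for myeloid sites, each with an adjusted p under the threshold of 0.05 (8.80e-08 and 0.00331, Fisher's exact test).

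After the Igh locus, the interval with most sites ran from Nmbr to Cited2, a coregulator needed for blood stem cells. It held 10 AML and 20 myeloid sites, and 7 AML sites were shared. They began 621 kb past Nmbr in the myeloid list and 1387 kb past it in the AML list. The interval from Id2, an inhibitor of basic helix-loop-helix factors, to Rnf144a had 8 AML and 14 myeloid sites, of which 5 were shared. All but the last AML site and the last pair of myeloid sites lay between 113 and 360 kb from Id2.

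Myc, a driver of cell growth, lies at the left edge of an interval with 7 AML and 13 myeloid sites, of which 3 were shared. Enhancers far downstream of Myc are known to control it in mouse blood stem cells and leukemia. AML sites lay 162, 188 and 402 kb from the end of Myc, and then at 1508, 1624, 1627 and 1658 kb. Those at 188, 1508 and 1658 kb were shared, and 7 myeloid sites fell between 1507 and 1668 kb. A gap of over 1 Mb without AML sites thus separated the sites near Myc from those near Gsdmc, while the myeloid list had 3 sites in it between 832 and 1296 kb. At chr15:63602918-63617400, 5 regions lay within 14.5 kb, and none of its 2 AML and 3 myeloid sites overlapped.

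Runx1, which encodes the factor whose gene is fused in AML1-ETO, had 1 AML and 10 myeloid sites in the interval to Setd4, and the AML site was shared. Of the myeloid sites, 3 stood within 12.7 kb at chr16:93207530-93220237. Bcl6, a transcriptional repressor of germinal centre B cells, had 5 AML and 7 myeloid sites in the interval to Lpp, and all 5 AML sites were shared. They lay 101, 132, 205, 211 and 227 kb from Bcl6. The first of them covers the promoter window of Gm31583 printed above, and 3 AML and 4 myeloid sites of this interval were inside the lncRNA gene Gm31814. Between Jun, a subunit of AP-1, and Fggy there were 4 AML and 8 myeloid sites, and again all 4 AML sites were shared.

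Genes of signalling and cell survival flanked other intervals with many sites. Between Eea1 and Btg1, an antiproliferative gene, there were 6 AML and 15 myeloid sites, and 5 AML sites were shared. From Rasgrp1, an activator of RAS, to Thbs1, there were 9 AML and 12 myeloid sites, and 7 AML sites were shared. At the 10 kb spacing this interval had the largest close group, 8 regions in 35.9 kb at chr2:117961389-117997254, with 6 AML sites, all of them shared, and 8 myeloid sites. The largest group held 10 regions in 57.2 kb of the same interval at a spacing of 20 kb, and at 5 kb the largest were 2 groups of 4. The group of 8 lay inside the lncRNA gene Gm13986, which contained 8 AML and 11 myeloid desert sites. Bcl2l11 encodes BIM, which promotes cell death, and its interval to Spdye4c had 8 AML and 10 myeloid sites, 4 of them shared. Morrbid, a lncRNA known to restrain Bcl2l11 in mouse myeloid cells, contained 3 AML and 4 myeloid sites. Uaca to Tle3, which encodes a Groucho-family corepressor, had 7 AML and 13 myeloid sites. Of these AML sites 6 were shared, and 2 of the promoter windows printed above, LOC115487176 and Gm46116, lie there. Between Dusp6, a phosphatase that turns off ERK, and Csl all 4 AML sites were shared, beside 8 myeloid sites.

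**Figure D4:**
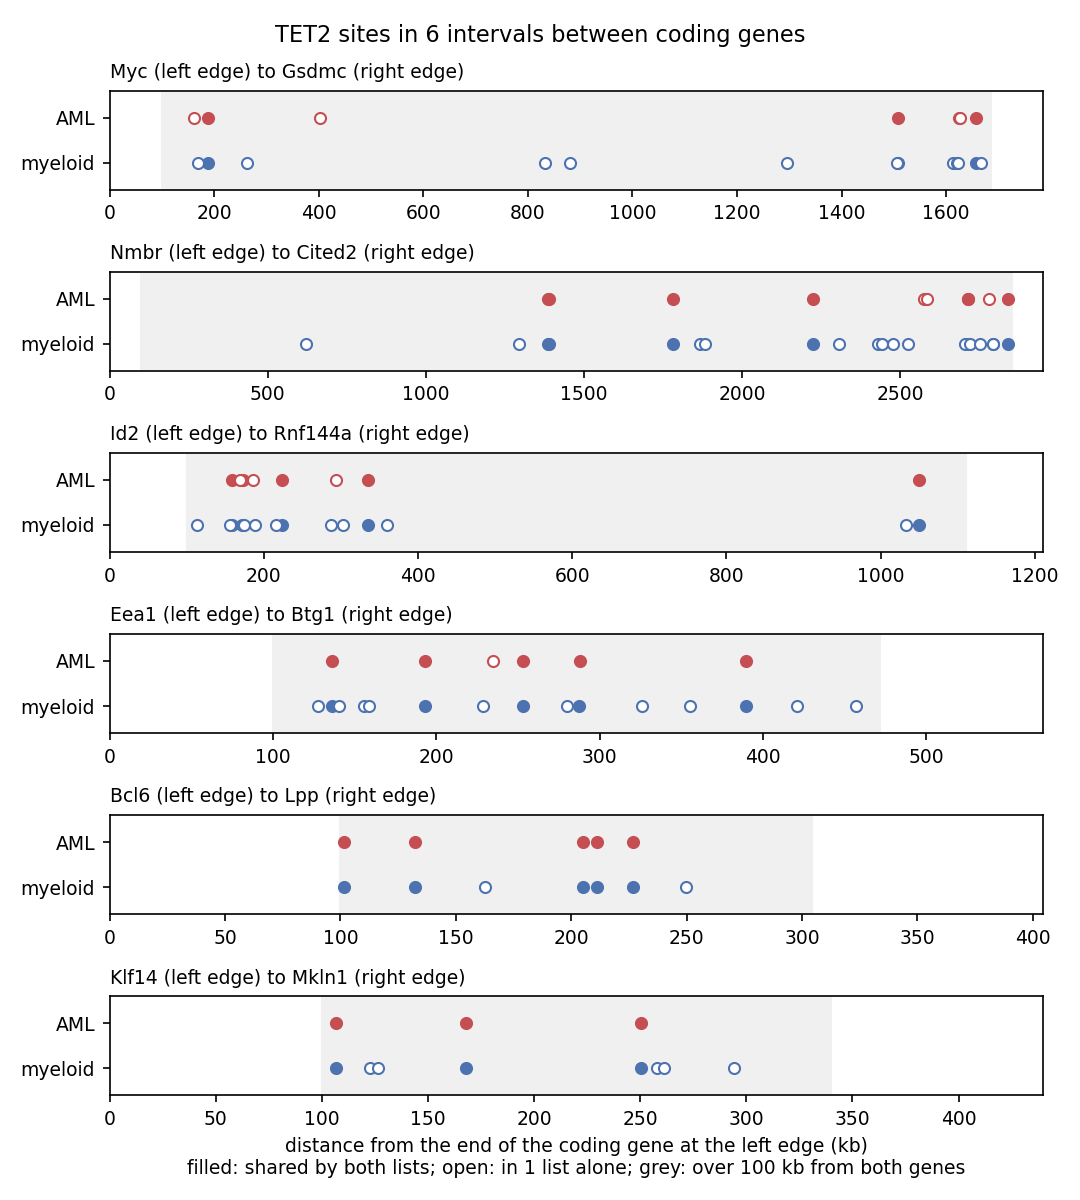
Positions of desert TET2 sites in 6 intervals, as distance in kb from the end of the coding gene at the left edge (horizontal), by list (vertical); filled points are shared, open points are in 1 list alone and grey marks sequence over 100 kb from both genes. AML sites of the interval beginning at Myc fall between 162 and 402 kb and between 1508 and 1658 kb, and all 5 AML sites of the interval beginning at Bcl6 are shared.

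Of all AML desert sites 60.8% were shared, and the sharing is described here per interval. In 119 intervals with 2 or more AML desert sites, all of the AML sites were shared in 36. How many intervals would be so at the overall share was not computed. Besides those named, the 36 included Irf2bp2 to Tomm20 (4 AML and 7 myeloid sites), Ahr to Agr3 (3 and 7) and Trib2 to Lpin1 (3 and 6). Ahr encodes a ligand-activated transcription factor, and the printed window of 9130015A21Rik lies in its interval. Myeloid sites outnumbered AML sites in 319 intervals, AML sites outnumbered myeloid sites in 80, and the numbers were equal in 65. The next 4 intervals were chosen after their values were seen. From 4930519L02Rik to Lmo4, an LIM-domain factor, there were 8 AML and 2 myeloid sites. From Adgrl2 to Adgrl4, both adhesion receptors, there were 8 and 3, and from BC048507 to Mtrr 5 and 0. From Adcyap1 to Mettl4 there were 0 AML and 8 myeloid sites. Per chromosome, the AML list had most desert sites on chromosome 13 (69 sites, 2.03 per Mb of desert) and the myeloid list on chromosome 10 (115 sites, 3.39 per Mb).

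The genes at the flanks of the desert intervals were described with lists of blood genes. The lists were chosen with earlier results of these data known, so the shares below are a description and not independent support. Of 98 intervals beside a gene of the blood lists, 45 (45.9%, 95% interval 35.8 to 56.3%) held an AML site and 54 (55.1%, 44.7 to 65.2%) a myeloid site. The density there was 2.61 AML and 4.95 myeloid sites per Mb. Over all desert intervals the shares were 19.4% and 29.3% and the densities 0.808 and 1.63 per Mb. For blood transcription factors 18 and 25 of 51 intervals held an AML and a myeloid site. The numbers were 10 and 11 of 18 for blood receptors and cytokines, and 17 and 18 of 30 for signalling and survival genes. Of 151 intervals beside neuronal and adhesion genes, 30 (19.9%) held an AML site and 49 (32.5%) a myeloid site. These shares were near those over all desert intervals, while the densities were 0.354 and 0.648 per Mb. For developmental transcription factors it was 15 and 22 of 84 intervals, and for olfactory and vomeronasal receptor genes 0 and 2 of 19. An interval can count for several lists, intervals differ in length, and no test was made of a list.

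**Figure D5:**
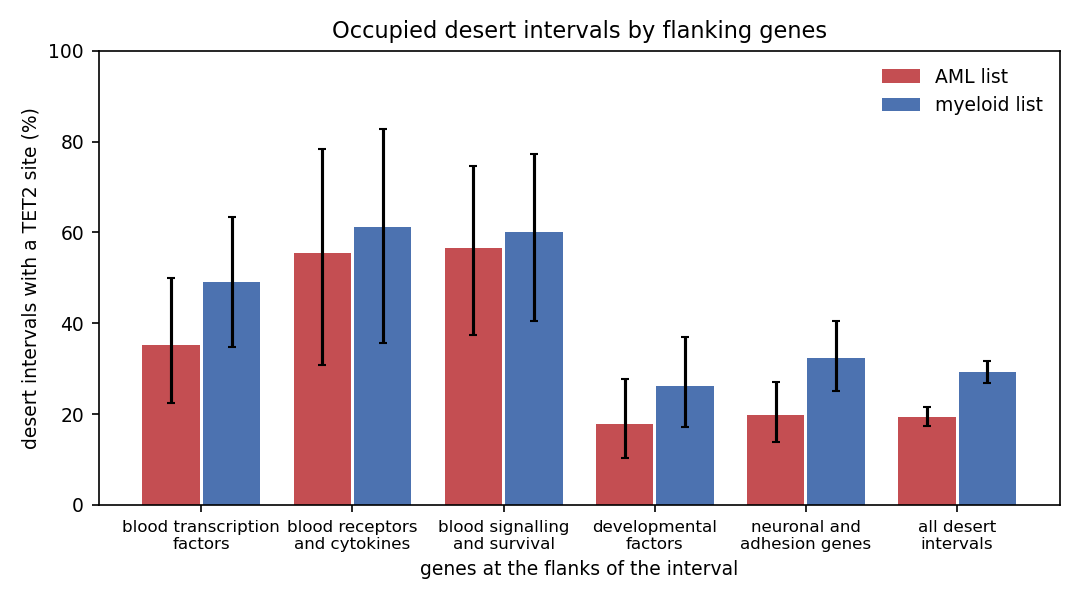
Share of desert intervals (vertical, %) that held at least 1 TET2 site of the AML or the myeloid list, by the kind of gene at a flank and for all 1395 intervals (horizontal); bars start at 0 and error bars are exact 95% intervals over intervals. The shares for blood signalling genes were 56.7% and 60.0%, and those over all intervals 19.4% and 29.3%. The gene lists were chosen with earlier results of these data known, and no list was tested.

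Of 78 genes in the blood lists that flank a desert interval, 47 (60.3%) were the nearest coding gene of a desert site, beside 24.3% of all 2361 coding genes at such flanks. AML sites were assigned to 38 of them (48.7%, beside 13.8%), myeloid sites to 41 (52.6%, beside 21%), both to 32 (41.0%, beside 10.5%) and shared sites to 31. These shares were not tested, and the lists were chosen with earlier results of these data known. Together they drew 82 AML and 137 myeloid desert sites. Among transcription factors, Id2 had 7 AML and 12 myeloid sites, Zeb2, a repressor that acts in blood lineages, had 4 and 6, and Jun had 3 and 7. Mef2c, a factor of lymphoid and myeloid cells, had 2 and 4 sites at 430 to 620 kb, and both AML sites were shared. Lmo4 was the nearest gene of 7 AML and 2 myeloid sites, while Klf4 and Gata3 had 3 myeloid sites each and 0 AML sites. Sox4 had 1 AML site and 0 myeloid sites.

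Among receptors and cytokines, Kit, the receptor of the SCF in the culture medium, had 1 AML and 3 myeloid sites at 109 to 135 kb. Il3ra, a receptor chain for the IL-3 added to the medium, had 1 and 2, and Il6 itself had 1 shared site at 111 kb. Cxcr4, the chemokine receptor that holds blood stem cells in the marrow, had 1 and 4. Tgfbr2, a receptor of TGF-beta, had 3 and 4 within 163 to 194 kb, and all 3 AML sites were shared. Ptprc, which encodes the leukocyte antigen CD45, had 3 of each, of which 2 were shared. Csf3r, the G-CSF receptor, had 1 myeloid site at 130 kb and no AML site.

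Among signalling and survival genes, Btg1 had 2 AML and 8 myeloid sites, and Dusp6 had 4 and 7. Trib2, a pseudokinase that degrades C/EBP-alpha, had 4 and 6 sites, of which 3 were shared, and its relative Trib1 had 2 and 4. Cdk6, a cell cycle kinase, had 2 of each at 142 to 189 kb, all of them shared. Ccnd2, which encodes cyclin D2, had 1 of each that did not overlap. Tet2 itself had 1 myeloid site at 115 kb and 0 AML sites. Over the 3 blood lists, 6 of the 47 genes had AML sites alone and 9 had myeloid sites alone, while 32 had both. For comparison, 574 coding genes of any kind were nearest to a desert site. Of these, 325 had an AML site, 496 a myeloid site and 247 both. A difference between the blood genes and this base was not tested.

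Part of the desert sites lay inside genes other than coding ones. The share of desert sequence that such genes cover was not measured, so the shares below have no base beside them. Such a gene contained the midpoint of 160 AML desert sites (30.1%, 95% interval 26.3 to 34.2%) and 294 myeloid ones (27.4%, 24.7 to 30.1%). A lncRNA gene contained 131 (24.7%) and 225 (20.9%). Gm51680, in the interval from Uaca to Tle3, held 4 AML sites, all shared, and 5 myeloid sites, and Gm30382, between Adgrl2 and Adgrl4, held 5 and 3. Gm31813 held 2 and 6. Pvt1, the lncRNA gene beside Myc, contained 2 and 3. Over 100 kb from every annotated gene of any kind lay 64 AML sites (12.1%) and 165 myeloid sites (15.4%).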

How the data were processed

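Build mm10 and the tools Trimmomatic, Bowtie2 and MACS2 are named in the submitters' processing notes. Not given in the sources used here are their versions, thresholds, use of controls and pooling of replicates. For each cell type the authors deposited 1 list of site positions, with the columns chromosome, start and end per the file headers and no other values, so depth is unknown. Cells had been crosslinked with 2 mM disuccinimidyl glutarate and 1% formaldehyde, which also captures proteins that reach DNA through partners, and chromatin was sheared to 200 to 500 bp, per the labels' protocols. Whether starts count from 0 or 1 is not stated, so positions are uncertain by 1 bp.

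The lists held 7002 AML and 19706 myeloid rows, of which 6877 and 19411 lay on chromosomes 1 to 19. Rows of a list that overlapped were merged into 6778 and 18533 sites. Genes came from the RefSeq table of GRCm38.p6, with 20558 protein-coding genes used. Left out were 333 entries that follow a restart of positions within a chromosome of that listing. Sites sharing at least 1 bp counted as shared. Density counts each chromosome beyond its first 3 Mb, up to the farthest gene or site. Shares have exact Clopper-Pearson 95% intervals and densities Poisson ones. Tests were two-sided Fisher's exact tests with Benjamini-Hochberg adjustment over 5, of which that on sites in 1 list alone is given as a description without its p. Python 3.11.15, pandas 2.3.3, SciPy 1.17.1 and statsmodels 0.14.6 were used, and the code was tested on simulated data.

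The members and gene lists were chosen with earlier results of these data known. Named were, by rule, the 10 intervals with most sites, examples of those with 2 or more shared sites, the most remote and widest sites, sites at the limit, blood genes nearest to a site, non-coding genes with most sites, microRNA genes within 10 kb and the Myc interval. Not every item so named is reported here: 1 of the 10 intervals is left out. All 174 blood genes matched the table. A planned motif scan of the sites themselves was not run, as no genome sequence was used here; the scan of promoter windows and the 10 kb spacing of neighbouring sites, on which group sizes depend, were chosen after seeing the data. So were the alternatives without antigen receptor loci, with intergenic sites alone and with spacings of 5 and 20 kb.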

Additional observations from a re-analysis of the deposited data

Results flagged for a closer look

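The sites found in 1 list alone differed in location between the lists, which is described here without the p of its Fisher's exact test. Neighbouring sites are not independent, so the intervals below are too narrow. Desert sites made up 10.9% of the AML sites without a myeloid partner and 5.49% of the myeloid sites without an AML partner, an odds ratio of 2.10 (95% interval 1.78 to 2.47). Among sites between genes alone the shares were 21.7% and 16.9%, an odds ratio of 1.37 (1.14 to 1.63), and with all annotated genes defining the deserts it was 1.13. Sites within 1 kb of a coding gene end made up 5.33% of the AML sites and 26.9% of the myeloid sites without a partner. With 1 list per cell type, no replicate error enters, and a difference between the cell types was not tested.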

How the results depend on the processing

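The number of desert sites (1281 joined, 531 AML, 1074 myeloid) depends on the rule. It was 184, 64 and 165 with all annotated genes, 2213, 929 and 1866 over 50 kb, 593, 235 and 495 over 200 kb, and 464, 270 and 409 with 1 count per interval. The lower sharing of AML desert sites than of other AML sites kept its direction and its side of the threshold in 11 of 12 alternatives. The odds ratio for sites in 1 list alone, given as a description, ranged from 1.13 to 2.85 over 13 alternatives. It fell from 2.10 to 1.37 among intergenic sites alone, an alternative chosen after seeing the data. With all annotated genes the odds ratios were 0.931 for AML desert sites against others and 1.05 for myeloid ones against others, neither past the threshold. The AML difference from nearer intergenic sites reversed to 1.08, and each of these had adjusted p = 0.891 by Fisher's exact test. For sites in 1 list alone the odds ratio was 1.13 with all annotated genes. Over 200 kb the myeloid odds ratio against others fell to 1.07. With 1 count per interval, shared if any of its sites was, the AML odds ratio against nearer intergenic sites was 0.756 and no longer passed. The myeloid one reversed to 1.08 (adjusted p = 0.459, Fisher's exact test). The myeloid odds ratio against nearer intergenic sites passed the threshold over 200 kb (0.772, adjusted p = 0.0158), with rows not merged (0.854, adjusted p = 0.0276) and with midpoints within 1 kb also counted as shared (0.864, adjusted p = 0.0436), each by Fisher's exact test. The cause of these shifts was not tested; the smaller number of sites over 200 kb, with all genes and with 1 count per interval is part of how those alternatives are made. No paired analysis was possible because the site lists carry no value per library, and for the same reason no replicate could be left out. Without read counts, a site missing from 1 list cannot be told apart from a site below its calling threshold.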
